A study of Danio rerio with 29 samples.

Results

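The 8 genes described here are cerebellin genes of the zebrafish: cbln13 (ENSDARG00000026904), cbln1, cbln2a, cbln2b, cbln4, cbln11, cbln12 and cbln18, of 32520 genes in each count table. cbln13 was chosen for its near loss in the brains of both mutant lines. The other members were chosen by name, to ask whether that loss concerned cbln13 alone. The brain values of cbln13 are therefore given as a description, with no test, and its test comes from the bodies.

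Cerebellins are small secreted proteins that carry a C1q domain. They act at synapses: in the mouse, Cbln1 leaves cerebellar granule cells and bridges neurexins on the granule cell axon and the receptor GluD2 on the Purkinje cell, and so holds that synapse together. Mouse Cbln2 binds the same kinds of partner in other brain regions, and Cbln4 also binds the netrin receptor DCC. Zebrafish carry further cerebellin genes with higher numbers, among them cbln11, cbln12, cbln13 and cbln18. No role is stated here for cbln11, cbln13 and cbln18.

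The fish were adults in 3 groups: wild type (WT), homozygous CCSER1_P471 (M) and homozygous CCSER1_S48Y* (S), both alleles of ccser1 made with CRISPR/Cas9. The wild-type fish were siblings out of an incross of heterozygotes, with the line of that incross unstated. RNA came from the whole brain (3 WT, 4 M and 4 S libraries) or from the body without the brain (6 libraries of each group). Sex, age beyond adulthood, clutch and pooling are unstated, as is whether libraries came from separate animals. The p-values therefore measure the spread between libraries, which may be technical. Within a tissue both lines were compared with the same WT libraries, so a like change in M and S is not independent evidence.

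Brain libraries held 7445865 to 9521735 counts and body libraries 9450422 to 11674882. The mutated gene ccser1 stood at 9.39 ± 1.79 CPM (counts per 1000000 of the library, SD, n = 3) in WT brains, 8.37 ± 1.54 (n = 4) in M and 10.7 ± 2.17 (n = 4) in S, and at 4.6 ± 1.2, 2.84 ± 0.752 and 2.83 ± 0.971 (n = 6 each) in bodies. The tissue labels matched a list of neuron markers, which summed to 10900 to 12300 CPM in brains and to 251 to 1360 in bodies. S brain 3 stood apart: epidermis markers summed to 3840 CPM there and skeletal muscle markers to 958, against 11.6 to 554 and 6.37 to 58.8 in the other brains. In 5 bodies (WT 1, 2 and 5, M 2 and 5) the pituitary hormone gene gh1 had at most 1 count. Ovary markers summed to 640 to 3820 CPM in WT bodies, 0.804 to 57.3 in M and 1.25 to 456 in S.

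cbln13 was present in WT brains and almost absent in the brains of both lines. It had 77, 18 and 65 counts in the 3 WT brains, 0, 2, 1 and 0 in the M brains and 2, 1, 1 and 2 in the S brains. No mutant brain came near the lowest WT brain. In CPM the WT brains held 9.87, 2.31 and 7.61 (6.6 ± 3.88, SD, n = 3), so WT brain 2 lay far below the others, while M brains held 0.0856 ± 0.104 (n = 4) and S brains 0.173 ± 0.0702 (n = 4). Summed over libraries, 160 WT counts stood against 3 in M and 6 in S. WT was 76.3 times M (95% counting interval 25.6 to 374) and 38.6 times S (17.3 to 107). Both intervals cover counting error only, not the spread between brains. They and the ratios that follow describe the values cbln13 was chosen on and are no test. Leaving out each of the 11 brains in turn gave ratios from 29.6 to 50.6 for S and from 56.4 to 99.9 for M, except that without M brain 2, which held 2 of the 3 M counts, the ratio to M was 166.

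**Figure D1:**
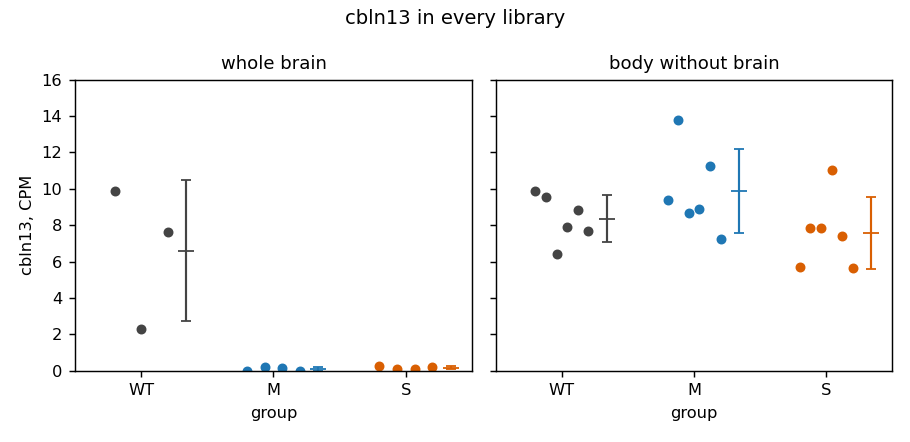
Level of cbln13 in every library, in CPM (y axis), by group (x axis), in whole brains on the left and bodies without the brain on the right. Points are libraries, and the mark with bars is the mean ± SD. The 8 mutant brains lie at 0 to 0.253 CPM and the 3 WT brains at 2.31 to 9.87, whereas the 18 bodies lie at 5.66 to 13.8 in overlapping groups.

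The epidermis markers summed to 396, 43.8 and 82.7 CPM in WT brains 1, 2 and 3, the same order as that of cbln13 in these 3 libraries. Skeletal muscle markers (58.8, 25.3 and 15.4 CPM) and liver markers (782, 431 and 365 CPM) had another order there. The part of these tissues in the level of cbln13 was not tested. S brain 3, with the largest epidermis sum of all 11 brains, had 1 count of cbln13, and M brain 4, with 554 CPM, had 0; with 0 to 2 counts in every mutant brain, no order could be read there. Photoreceptor and pineal markers moved with the lines, from 20.8 to 25.1 CPM in WT brains to 196 to 290 in M and 167 to 296 in S. Of the 19, 16 passed the filter on low counts, and all 16 were higher in both lines. Over all genes 4.93% were higher in M and 5.59% in S. A marker scarce in WT brains could pass that filter through the mutant brains alone, which would set its direction. The count of 16 is therefore a description. Their part in the loss of cbln13 was not tested. In whole tissue, fewer cells of a type and less RNA per cell cannot be told apart.

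The other cerebellins that could be tested in brains did not fall in this way. Of the 7 others, 5 passed the filter on low counts in brains. None of the 5 was called in M (adjusted p under 0.05 in edgeR's quasi-likelihood test, over all genes), against 10.1% of all tested genes called in either direction, 4.93% higher and 5.19% lower. At an unadjusted p under 0.05 there was 1, cbln12, against 4906 of 18733 genes. DESeq2 also called cbln12, and over all genes it called 2397 of 26011. In S 1 of the 5 was called, cbln2b, lower, against 10.3% of all genes called, 5.59% higher and 4.73% lower. Between M and S 0 of the 5 were called, against 10.1% of all genes (1883 of 18733). DESeq2 called 1, cbln2a, against 2370 of 26011 genes. The 95% intervals of the 5 log2 changes reached no lower than -0.81 in M and -0.76 in S. Their median log2 change was -0.10 in M and -0.195 in S, with medians over all genes of 0.01 and 0.00.

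cbln2b, a copy of the gene whose mouse counterpart is a neurexin ligand, was the member called in S. Its values are those of the row named CBLN2 (ENSDARG00000077151), taken as cbln2b because cbln2a has a row of its own. It stood at 83.1, 96.8 and 82.5 CPM in the 3 WT brains, at 78.8, 76.6, 79 and 80.3 in M and at 72.8, 64.5, 64.7 and 70.6 in S. All 8 mutant brains lay below all 3 WT brains, and all S brains below all M brains. This order is a description, with no share of all genes that separate so beside it. In S the log2 change was -0.36 (SE 0.0759, adjusted p = 0.0093), a fold of 1.28, and it was called with each of the 11 libraries left out in turn. In M it was -0.15 (95% interval -0.31 to 0.01, adjusted p = 0.221). The difference between the lines, 0.21 higher in M, did not pass (adjusted p = 0.0782).

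cbln2a, the other copy, stood at 29.4, 28.5 and 46.6 CPM in WT brains, so WT brain 3 was well above the rest. M brains held 34.4 to 41.4 CPM (38.9 ± 3.14, n = 4) and S brains 19.7 to 30 (26.9 ± 4.83, n = 4). Both lines overlapped WT, but every M brain lay above every S brain. Against WT the log2 changes were 0.16 in M (95% interval -0.22 to 0.54, adjusted p = 0.621) and -0.38 in S (-0.76 to 0.01, adjusted p = 0.203). M was above S by 0.53 (SE 0.166, adjusted p = 0.0579), which did not pass, though it did in DESeq2 (adjusted p = 0.0277), with only M and S in the fit (adjusted p = 0.0182) and without WT brain 3 (adjusted p = 0.0174).

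cbln1 codes for the ligand of the granule to Purkinje cell synapse, as known from the mouse. It held 117, 136 and 112 CPM in WT brains, 120, 122, 111 and 100 in M and 114, 102, 108 and 101 in S. The groups overlapped, and the log2 changes were -0.10 in M (95% interval -0.29 to 0.08, adjusted p = 0.496) and -0.19 in S (-0.38 to -0.01, adjusted p = 0.17). A change of cbln1 as large as that of cbln13 lies far outside these intervals.

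cbln12, which zebrafish granule cells express, had the largest counts of the 8 members in brains, 1607 to 3205 a library. It stood at 265, 323 and 375 CPM in WT brains, 190, 213, 222 and 302 in M and 306, 298, 311 and 258 in S. In M 3 of 4 libraries lay below every WT brain, and M brain 4 lay among them. The log2 change in M was -0.47 (SE 0.154, adjusted p = 0.08). It passed without M brain 4 (-0.62, adjusted p = 0.00349), without WT brain 1 (-0.595, adjusted p = 0.0441) and in DESeq2 (-0.47, adjusted p = 0.0157). In S it was -0.13 (95% interval -0.47 to 0.21, adjusted p = 0.648). M and S differed by -0.34 (adjusted p = 0.169), and by -0.49 without M brain 4 (adjusted p = 0.00931). Of 18 granule cell markers 15 were tested in brains and 0 were called by edgeR in either line, against 10.1% of all genes in M and 10.3% in S. At an unadjusted p under 0.05 there were 0 in M and 3 in S, against 4906 and 4874 of 18733 genes. DESeq2 called 0 and 1, against 2397 and 2342 of 26011 genes. Of 18 Purkinje cell markers 16 were tested. By edgeR 0 were higher and 2 lower in M, and 1 was higher and 2 lower in S. Over all genes 4.93% were higher and 5.19% lower in M, and 5.59% and 4.73% in S. Of these markers 6 in M and 4 in S had an unadjusted p under 0.05 in edgeR. DESeq2 called 0 higher and 2 lower in M, and 1 higher and 2 lower in S.

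cbln4, whose mouse counterpart binds DCC, was scarce, with 29 to 85 counts a brain. WT brains held 9.74, 6.94 and 3.39 CPM, a spread that covered every value but 1 in S and 2 in M. The log2 change was 0.52 in M (95% interval -0.06 to 1.10, adjusted p = 0.241) and 0.39 in S (-0.18 to 0.97, adjusted p = 0.391). cbln18 had 13, 16 and 14 counts summed over WT, M and S brains, and cbln11 had 1 count in all 11 brains. Both failed the filter on low counts and were not tested. The summed counts of cbln18 showed no fall like that of cbln13, though smaller changes could not be seen at this depth. With 1 count of cbln11, no loss could be seen.

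**Figure D2:**
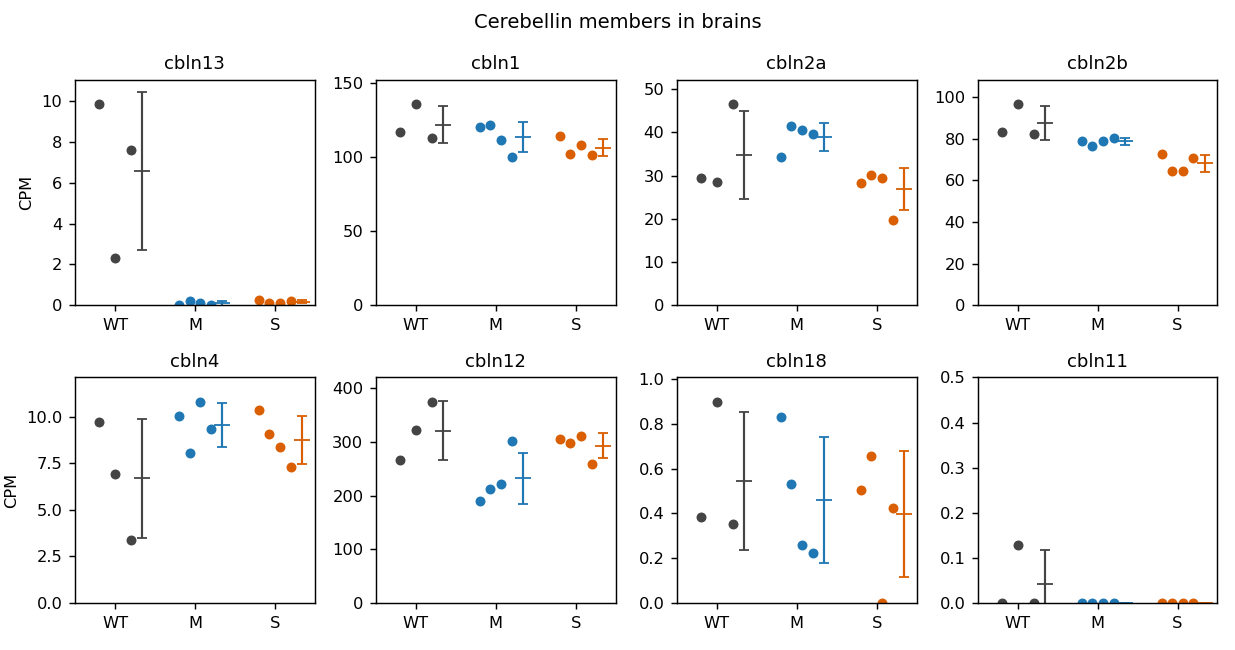
Level of the 8 members in every brain library, in CPM (y axes, each from 0), by group (x axes). Points are libraries, and the mark with bars is the mean ± SD of 3 WT, 4 M or 4 S libraries. cbln13 falls to near 0 in both lines, while cbln1, cbln2a, cbln2b, cbln4 and cbln12 stand at 3.39 CPM or more in every brain; cbln2b in S, at 64.5 to 72.8 CPM, lies below all WT brains.

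The protein-coding genes beside cbln13 on its chromosome were examined next, in the gene order of a RefSeq table whose assembly, GRCz12tu, is not the build of the counts. Genes that code for no protein were left out of that order, of the neighbours and of the genes between. Of the 10 nearest protein-coding genes on each side 17 matched a row of the tables and 10 were tested in brains. In each line 0 of the 10 were higher and 1 was lower, a share near that of all genes called (10.1% in M and 10.3% in S, of which 5.19% and 4.73% lower), with medians of 0.27 in M and 0.20 in S. The lower gene was the same in both, zgc:66427, the immediate neighbour of cbln13, with both lines compared with the same WT brains. It held 89.6, 65.9 and 61.1 CPM in WT brains, 47.6, 35.8, 43.5 and 34.4 in M and 39.6, 36.7, 39.4 and 41.6 in S, so that no mutant brain reached the WT range. The log2 changes were -0.84 (SE 0.136, adjusted p = 0.0019) and -0.88 (SE 0.136, adjusted p = 0.00155). In bodies it was not called in either line, with log2 changes of -0.13 in M and -0.23 in S (adjusted p of 0.319 and 0.0852). The lectin genes on the other side, hbl4 and mbl2, were too scarce in brains to test: hbl4 had 8 counts in WT, 2 in M and 0 in S, and mbl2 had 15, 1 and 9. The lectin genes hbl2 and hbl1 and tep1, further along, were tested and not called. DESeq2 called hbl2 higher in both lines and PARP2, another of the 10, higher in M. Over all genes it called 2397 of 26011 in M and 2342 in S. Of the 16 cerebellin genes in that order 7, cbln13 included, lay on the chromosome of cbln13, and 0 lay on that of ccser1. cbln10, cbln14 and cbln9 stood side by side, with 6 genes between cbln13 and the first of them, and cbln12 followed with 19 genes between.

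In bodies cbln13 was not lost, and here it could be tested. WT bodies held 114, 100, 68, 85, 96 and 78 counts, M bodies 93, 141, 81, 93, 112 and 82, and S bodies 57, 93, 90, 116, 77 and 59. The groups overlapped throughout. The means were 8.37 ± 1.31 CPM in WT, 9.87 ± 2.32 in M and 7.59 ± 1.98 in S (SD, n = 6 each). The log2 change was 0.24 in M (SE 0.18, 95% interval -0.14 to 0.61, adjusted p = 0.311) and -0.14 in S (SE 0.181, -0.52 to 0.24, adjusted p = 0.555), so a fall by more than 0.52 on the log2 scale lies outside both intervals. M and S differed by 0.38 (adjusted p = 0.224).

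In the bodies of S cbln1, cbln2b and cbln18 were called higher, and no member was called in M. All 8 passed the filter in bodies. In M 0 of 8 were called, against 33.1% of all genes. Under an unadjusted p of 0.05 there were 2 (cbln1 and cbln2b), against 8988 of 20240 genes. DESeq2 called 0, against 7617 of 27321 genes. In S 3 of 8 were called, all higher, against 36.8% of all genes called and 15.7% higher. The share called in either direction is thus near the background, and the share called higher is above it, on only 8 genes. Between M and S 0 were called, against 8.1% of all genes. Under an unadjusted p of 0.05 in edgeR there was 1 (cbln18), against 4527 of 20240 genes. DESeq2 called 0, against 2427 of 27321 genes.

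cbln1 rose in S bodies, from 3.82, 3.24, 7.33, 4.18, 2.76 and 6.88 CPM in WT to 8.19, 8.88, 11.2, 5.91, 11.5 and 11.1. In S 5 of 6 bodies lay above every WT body. The log2 change was 1.01 (SE 0.324, adjusted p = 0.0211), and it was called with each of the 18 bodies left out in turn. In M it was 0.73 (adjusted p = 0.0886), with 4 of 6 bodies above every WT body and M bodies 2 and 5, at 3.72 and 2.71 CPM, among the lowest. The M change passed without M body 2 (adjusted p = 0.0414), M body 5 (adjusted p = 0.0185), WT body 3 (adjusted p = 0.043) or WT body 6 (adjusted p = 0.048).

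cbln2b had the same arrangement, with 1.05 to 5.9 CPM in WT bodies (median 2.36), 1.21 to 10.9 in M (median 7.17) and 4.58 to 9.18 in S (median 8.02). In S 5 of 6 bodies and in M 4 of 6 lay above every WT body. The log2 change was 1.25 in S (SE 0.454, adjusted p = 0.0386) and 1.04 in M (SE 0.455, adjusted p = 0.0846). The S call was lost in 8 of the 18 fits with 1 body left out, those lacking one of WT bodies 1, 2, 4 and 5 and S bodies 1, 3, 5 and 6 (adjusted p up to 0.0813). The M change passed without M body 5 (adjusted p = 0.0181), WT body 3 (adjusted p = 0.0404) or WT body 6 (adjusted p = 0.0335).

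cbln18 stood at 0.668 to 4.13 CPM in WT bodies (median 0.985), 0.402 to 3.42 in M (median 1.74) and 2.11 to 9.39 in S (median 2.89). S bodies 4 and 6, at 6.77 and 9.39 CPM, were above every WT body, and the other 4 were not. The log2 change was 1.35 in S (SE 0.505, adjusted p = 0.0433) and 0.07 in M (adjusted p = 0.932). The S call was lost in 9 of the 18 fits with 1 body left out, those without WT body 1, 2, 4 or 5, M body 1, 4 or 6 or S body 4 or 6 (adjusted p up to 0.134).

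**Figure D3:**
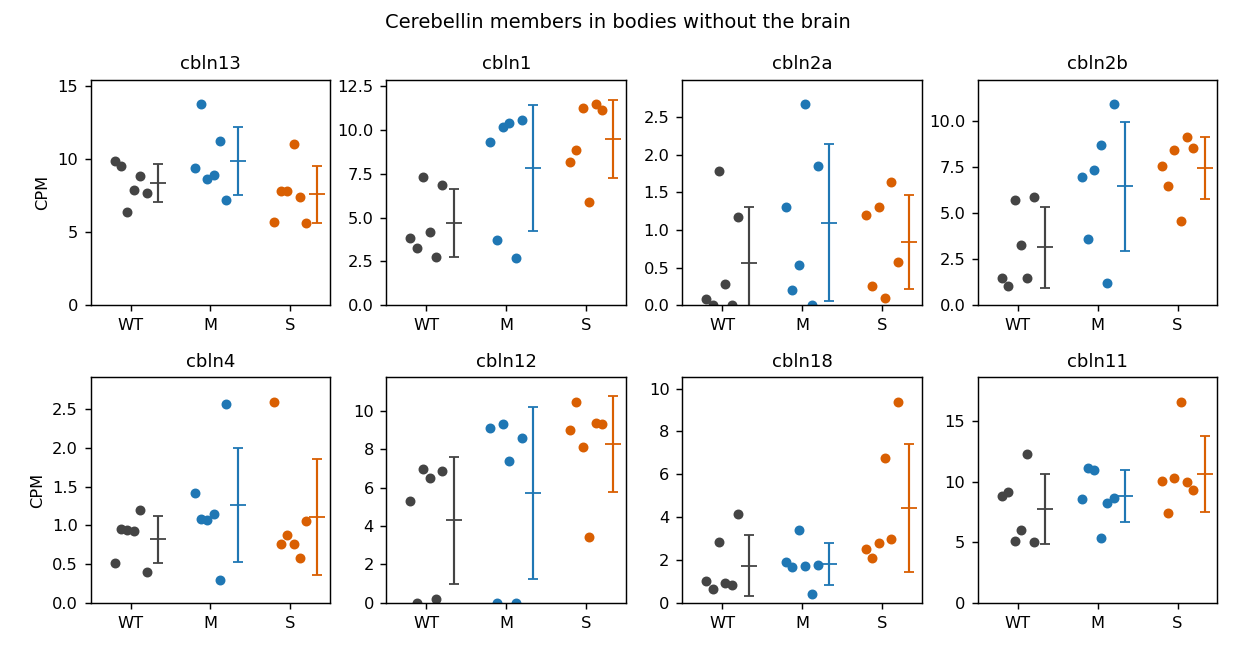
Level of the 8 members in every body library, in CPM (y axes, each from 0), by group (x axes). Points are libraries, and the mark with bars is the mean ± SD of 6 libraries. cbln13 has overlapping groups at 5.66 to 13.8 CPM, and cbln12 splits into bodies at 0 to 0.184 CPM and bodies at 3.43 to 10.5 CPM.

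The summed neuron markers were higher at the median in the bodies of both lines too. Their sum ran from 330 to 932 CPM in WT bodies (median 546), from 251 to 1360 in M (median 1070) and from 754 to 1200 in S (median 1150), and all 14 markers of the list had counts in bodies. Of the 13 tested, 0 were higher and 1 lower in M, and 3 were higher and 1 lower in S. Over all genes 12.4% were higher and 20.7% lower in M, and 15.7% and 21.1% in S. With the score of that list in the model, a term added after the data were seen, the log2 changes in S were 0.245 for cbln1 (adjusted p = 0.28), 0.28 for cbln2b (adjusted p = 0.252) and 0.74 for cbln18 (adjusted p = 0.272). The members called were cbln11, higher (0.84, adjusted p = 0.0199), and cbln2a, lower (-1.49, adjusted p = 0.0315), against 4492 of 20240 genes called in S. Without the 5 bodies with at most 1 count of gh1 the changes of cbln1, cbln2b and cbln18 were 0.63 (adjusted p = 0.0653), 0.59 (adjusted p = 0.113) and 0.75 (adjusted p = 0.347). There cbln11 was the member called in S, at 0.98 (adjusted p = 0.0197), against 3091 of 20745 genes called. cbln13 was also called in M with the neuron score, at 0.41 (adjusted p = 0.0438), in the direction away from a loss, against 6208 of 20240 genes called. With the score of the ovary list in the model 0 of 8 members were called in S, with adjusted p of 0.628 for cbln1, 0.775 for cbln2b and 0.988 for cbln18; that term, which follows the lines, left 230 of 20240 genes called in S bodies and 43 in M bodies.

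cbln12 split the bodies in another way. It had 0, 2, 0 and 0 counts in WT 2, WT 5, M 2 and M 5, and 36 to 124 in the other 14 bodies. These 4 bodies were among the 5 with at most 1 count of gh1, and the fifth, WT body 1, had 61 counts of cbln12. The line effects of cbln12 had 95% intervals from -1.44 to 2.26 in M and from -0.89 to 2.78 in S. cbln2a was as uneven, at 0 to 28 counts a body, with intervals from -0.88 to 2.87 and from -1.31 to 2.52.

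cbln11 and cbln4 were not called in bodies by the fit of all libraries. cbln11 held 5.01 to 12.2 CPM in WT bodies, 5.36 to 11.2 in M and 7.44 to 16.6 in S, and changed by 0.19 in M (adjusted p = 0.551) and by 0.45 in S (adjusted p = 0.135) on the log2 scale, the latter called without WT body 5 (0.63, adjusted p = 0.0447). cbln4 had 3 to 29 counts a body and log2 changes of 0.62 and 0.41 (adjusted p of 0.277 and 0.476).

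**Figure D4:**
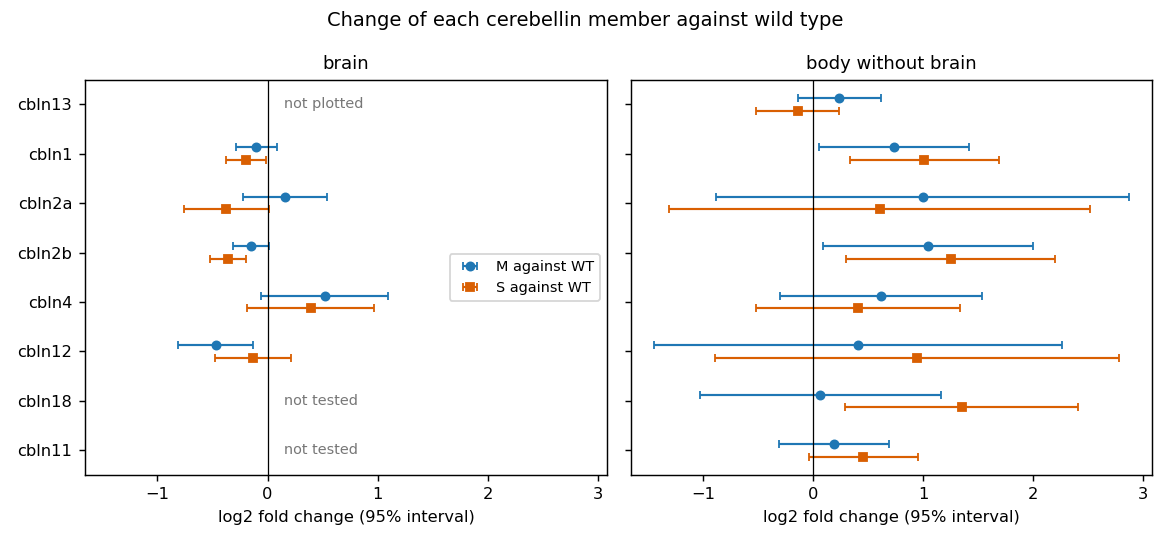
Log2 change of each member against WT (x axis, with the 95% interval of the edgeR fit as a bar) in brains on the left and bodies without the brain on the right, M as circles and S as squares. The brain changes of the 5 tested members lie between -0.47 and 0.52; cbln13 in brains is not plotted because it was chosen on those values, and cbln11 and cbln18 were not tested there.

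Most members were higher in the brains of WT fish than in the bodies. In a joint fit of all 29 libraries cbln1, cbln2a, cbln2b, cbln4 and cbln12 were called higher in WT brains. The log2 changes were 4.19, 5.47 (6.30 without WT body 3), 4.30, 2.49 and 5.74 (adjusted p from 5.7e-13 to 3.62e-06). So 5 of the 7 tested members were higher and 2 lower, against 37.9% and 41.7% of all genes and 79.7% called in either direction. The 2 lower, cbln11 and cbln18, failed the filter in brains and entered the joint fit through the bodies. Their direction was thus set by the filter, and their values are a description. cbln18 was lower in brains, by a log2 change of -2.14 (adjusted p = 0.00983), and its bodies held 4.51 times the brain level (95% counting interval 2.53 to 8.73). cbln11 had 501 counts in WT bodies and 1 in WT brains, in WT brain 2, a ratio of 267 (47.7 to 10600). cbln13 stood between these sets, with WT bodies at 1.8 times WT brains (95% counting interval 1.51 to 2.16), a value that uses the brains it was chosen on. Counting intervals leave out the spread between libraries. The joint fit, which takes that spread in, put WT brains against WT bodies at -0.85 for cbln13 on the log2 scale (95% interval -1.50 to -0.20). Tissue and library preparation cannot be told apart in this comparison.

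Whether the lines acted differently in both tissues was tested for the other 7 members, and 0 were called in M (against 12.3% of all genes) and 0 in S (against 9.17%). Of the 7, cbln11 and cbln18 were too scarce for the filter in brains and entered this fit through the bodies. Their contrasts carry little information, so the result rests on cbln1, cbln2a, cbln2b, cbln4 and cbln12. The lowest p values were those of cbln1 and cbln2b in S, at -1.15 (adjusted p = 0.0613) and -1.56 (adjusted p = 0.0641). At an unadjusted p under 0.05 there was 1 member in M, cbln2b, and 2 in S, against 6070 and 5851 of 22442 genes. DESeq2 called 0 members in M and 2 in S, cbln1 (-1.26, adjusted p = 0.0354) and cbln2b (-1.65, adjusted p = 0.0465). Over all genes it called 3994 of 27734 in M and 3061 in S. In S cbln1 also passed without M body 2 or 5, S body 4 or WT body 3 or 6 (adjusted p from 0.0262 to 0.0447), and cbln2b without M body 5 or WT body 3 or 6 (adjusted p from 0.0193 to 0.0258). In M cbln2b passed without M body 5.

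Among the partners of cerebellins, DCC rose in the brains of both lines. Of 14 rows for neurexins, GluD receptors and their adaptors, DCC and neogenin, 1 was higher in M and 3 in S, and 0 were lower in either, against 4.93% and 5.59% of all genes higher, so that the count in M is near the background. The medians were 0.10 and 0.19 against 0.01 and 0.00 over all genes. DCC, the netrin receptor that binds Cbln4 in the mouse, rose from 5.2 ± 0.453 CPM in WT (n = 3) to 9.99 ± 1.21 in M and 12.6 ± 0.951 in S (n = 4 each). Its log2 changes were 0.94 (SE 0.163, adjusted p = 0.00286) and 1.28 (SE 0.163, adjusted p = 0.000382). The neurexin genes nrxn1b and nrxn1a rose in S, by 0.41 (adjusted p = 0.0105) and 0.24 (adjusted p = 0.0194), and stood at 0.27 (adjusted p = 0.0689) and 0.13 (adjusted p = 0.163) in M. The call of nrxn1b in S was lost without WT brain 3 (adjusted p = 0.0601), and that of nrxn1a without WT brain 1 (0.0507), WT brain 2 (0.0766) or S brain 2 (0.0623); nrxn1b passed in M without WT brain 1 (adjusted p = 0.048). In bodies 2 rows were higher in M and 5 in S, with 0 lower, against 12.4% and 15.7% of all genes higher, so that the count in M is near the background there too. They were led by nrxn1b (1.53 in M and 1.11 in S) and NEO1 (0.46 and 0.56). The neuron markers also summed higher at the median, at 546 CPM in WT bodies, 1070 in M and 1150 in S, and their part was not tested.

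Of the C1q-like organizers, secreted relatives of cerebellins, and their receptor gene ADGRB3, 6 of 7 rows were tested in brains and 0 were called in either line. Their lowest unadjusted p was 0.0231 in M and 0.0355 in S, both in the C1QL4 row ENSDARG00000055317, and ADGRB3 itself changed by 0.10 and 0.05. Of 33 other organizers of the synapse, such as neuroligins and receptor phosphatases, 4 were higher in M brains and 5 in S brains, and 0 lower, against the same 4.93% and 5.59% of all genes. The receptor phosphatase gene ptprsa had the smallest p in both, with 118 ± 5.47 CPM in WT, 177 ± 15 in M and 172 ± 12.4 in S, log2 changes of 0.58 and 0.54 (adjusted p of 0.000672 and 0.00115).

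Of the other 9 genes named cerebellin, 0 passed the filter in brains. cbln5, cbln6, cbln9, cbln10 and cbln14 had 0 counts in all 11 brains, cbln7 had 1, cbln17 had 7, cbln20 had 10 and cbln8 had 35, 21 of them in S brain 3. With the floor of 3 counts over the WT brains, cbln10 was at least 283 times higher in WT bodies than in WT brains, cbln9 at least 61.8 times and cbln14 at least 58.1 times. WT brains held 160 counts of cbln13.

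In bodies most of these 9 genes were higher in both lines. In M 7 were higher, 1 lower and 1 not called, and in S 6, 1 and 2. The background over all genes was 12.4% higher and 20.7% lower for M bodies, and 15.7% and 21.1% for S bodies. How reads shared by similar copies were counted is not given in the sources used here, so whether these genes share reads was not tested. cbln7 rose from 0.464 to 4.88 CPM in WT to 7.9 to 39.5 in M and 8.53 to 28.7 in S, without overlap, by 2.35 (SE 0.462, adjusted p = 0.000956) and 2.65 (SE 0.464, adjusted p = 0.00048). cbln8 rose from 55.4 ± 23.2 CPM to 145 ± 27 in M and 103 ± 44.1 in S, by 1.39 and 0.90 (adjusted p of 0.00259 and 0.0313), and cbln9 by 1.35 (adjusted p = 0.0107) and 1.38 (adjusted p = 0.00915). cbln14 (0.92 in M and 0.94 in S) and cbln17 (0.90 and 0.92) rose in both lines too. cbln5 was called in M (0.53, adjusted p = 0.0451) and cbln20 in S (1.11, adjusted p = 0.0218). The cbln5 call was lost in 10 of the 18 fits with 1 body left out (adjusted p up to 0.144), that of cbln8 in S without S body 3, 4 or 5 or WT body 3 or 4 (adjusted p up to 0.0909), that of cbln20 in S without WT body 1 or 4 (0.0549), and that of cbln17 in M without M body 2 (0.0534). cbln20 passed in M without M body 5 (0.0231) or WT body 6 (0.00111).

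cbln10 went the other way. It stood at 28.7, 21, 21.1, 35.9, 24.4 and 16.6 CPM in WT bodies, at 6.41 to 15.2 in M and at 10.1 to 19.7 in S. All M bodies and 5 of 6 S bodies lay below every WT body. The log2 changes were -1.20 (SE 0.21, adjusted p = 0.00032) and -0.84 (SE 0.207, adjusted p = 0.00441). Both lines are compared with the same 6 WT bodies in each of these results. The ovary markers were far lower in the bodies of both lines than in WT, so they differed between the same groups as these genes. Whether they followed these genes from library to library was not tested. With the ovary score in the model 0 of the 9 genes were called in either line: cbln10 then had -0.61 and -0.35 in M and S (adjusted p of 0.761 and 0.775), and cbln7 had 2.60 and 2.84 (adjusted p of 0.371 and 0.0545). That score follows the lines, and with it 43 of 20240 genes were called in M bodies and 230 in S bodies. The fit therefore cannot tell the ovary and the lines apart for these genes.

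cbln6 was present or absent by library. It had 28, 27, 0, 0, 25 and 0 counts in WT bodies 1 to 6, 188 to 370 in all M bodies, and 0, 102, 0, 246, 207 and 0 in S bodies 1 to 6. The 3 WT bodies with counts of cbln6 were those with at most 1 count of gh1. This match did not hold in the lines. S bodies 2, 4 and 5, which had cbln6, had 68, 77 and 51 counts of gh1. All M bodies had cbln6, while only M bodies 2 and 5 lacked gh1. The log2 change in M was 4.41 (SE 1.18, adjusted p = 0.00913). That in S was 2.81 (SE 1.16, adjusted p = 0.0676), a mean over bodies at 0 and bodies at 8.62 to 23.5 CPM; it passed without S body 1 (0.0422), 3 (0.0412) or 6 (0.0423), each of which had 0 counts.

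**Figure D5:**
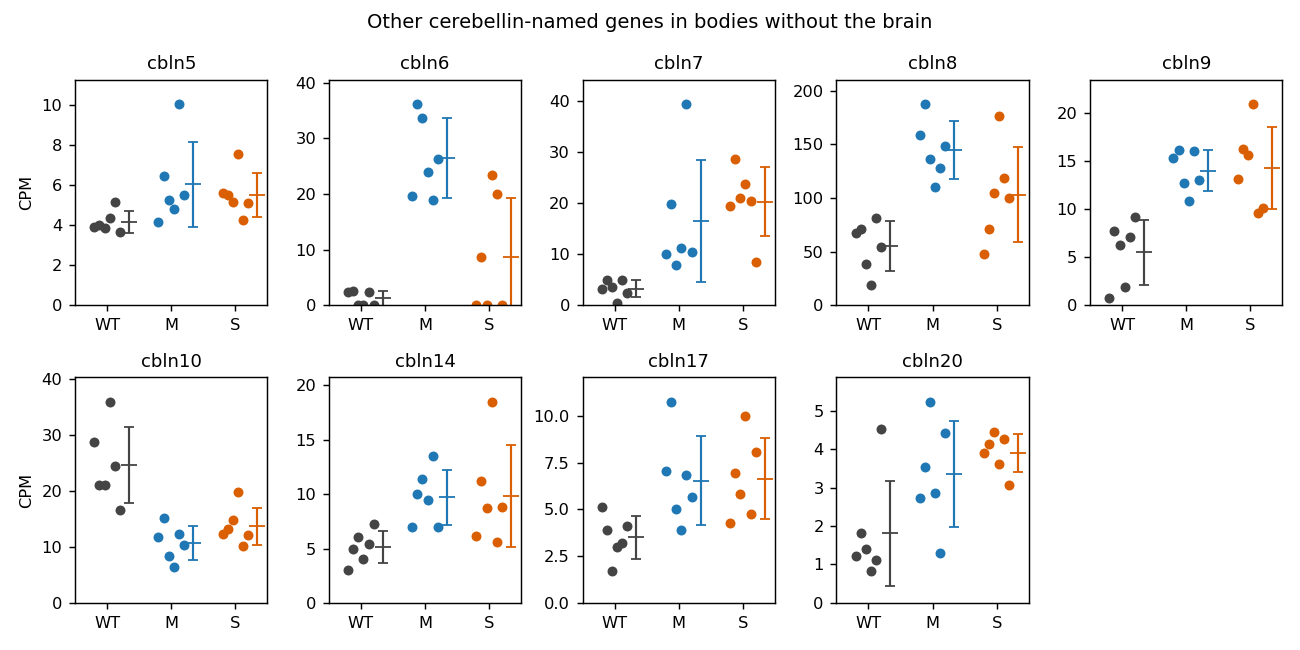
Level of the other 9 cerebellin genes in every body library, in CPM (y axes, each from 0), by group (x axes). Points are libraries, and the mark with bars is the mean ± SD of 6 libraries. cbln10 is lower in both lines, cbln7 higher in both without overlap, and cbln6 is at 0 in 3 WT and 3 S bodies and at 18.9 to 36.2 CPM in all M bodies.

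The genes whose pattern was most like that of cbln13 were found by Pearson correlation of log2 CPM, as a description. Over the 11 brains they were chchd4b (r = 0.951), dcdc2b (0.946), akt1s1 (0.939), nedd1, EIF2B3, ARL3, SH3BGRL3, cabp5b, mgll and MCTS2 (0.921). The value is over libraries of 3 groups, so a fall in both lines adds to it: chchd4b went from 115 to 140 counts in WT to 69 to 76 in M and 72 to 87 in S. By Spearman's measure 0 of the 10 remained among the nearest 10. Of the members, cbln2b had r = 0.549, cbln12 0.455, cbln1 0.405, cbln2a 0.0898 and cbln4 -0.569 with cbln13 over brains.

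Over the 18 bodies the nearest were cldn15la (r = 0.875) and cdh1 (0.832), genes of epithelial junctions, the aminopeptidase gene anpeplb (0.867), GFI1B (0.854), hsh2d, GFPT2, PSME2, tmc5, TM4SF5 and ifi44a6 (0.812). By Spearman's measure 5 of the 10 remained. The members abundant in brain had negative values there, cbln12 at -0.656, cbln1 at -0.588, cbln2a at -0.563 and cbln2b at -0.541, while cbln6 stood at 0.646. These values are over libraries of all 3 groups, which differ in ovary and neuron markers.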

How the data were processed

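Per the labels, poly(A) RNA was sequenced as paired reads of 150 bp (Illumina HiSeq). STAR, GRCz11 and GRCz10 stand without roles in the submitters' processing notes; for the counting program, annotation and strand setting no source used here gives a name. The 2 deposited tables hold raw counts per gene, which the authors had not normalized: all values were whole numbers with differing totals.

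The test for all genes was that of edgeR 4.0.16 in R 4.3.3 (quasi-likelihood, robust, TMM factors, default filter on low counts; 18733 genes in brain, 20240 in body, 22442 in the joint fit), fitting the 3 groups of a tissue together. A gene was called at a Benjamini-Hochberg adjusted p under 0.05 over all genes tested. Groups that do not overlap are described only, since no share of all genes that separate so is given here. CPM are counts divided by the TMM-scaled total. Counting intervals and floors cover counting error only; 3 counts was the floor. The test was also run on simulated data with the same spread for every gene, a simpler case than these libraries. Its outcome is not drawn on here.

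The members and gene lists were chosen with earlier results of these data known, and the ovary and pituitary lists were added after the values were seen. Named genes are the members, the other genes named cerebellin, up to 4 of each list with the smallest p, the 10 nearest protein-coding genes on each side, and the 10 symbol-bearing genes most correlated with cbln13 over libraries (prior count 2). Symbols come from the supplied name table, which writes many as human symbols in capitals; cbln1, cbln2b and cbln4 are listed there as CBLN1, CBLN2 and CBLN4. Gene lengths were not used here, so CPM are not compared between genes as levels. Alternatives were each library left out in turn, the replicate number as a block, a fit of only the 2 groups compared, DESeq2 1.42.0, RLE scaling, dropping the filter or setting it at 1 CPM, and turning off the robust option. Those added after seeing the data were the fits without the 5 bodies low in gh1 and with the ovary or neuron score. No library was left out of the reported fits, and sequences were not used here.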

Additional observations from a re-analysis of the deposited data

Results flagged for a closer look

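Among 36 groups of 4 or 6 libraries examined, 4 held a library whose gap to its neighbour was too large a part of the range by Dixon's 95% criterion, against about 1 in 20 groups by chance. In S brain 4 cbln2a was lowest, at 19.7 CPM against 28.3 to 30 in the other S brains. In S body 1 cbln4 was highest, at 2.6 CPM against 0.58 to 1.05. In S body 4 2 members stood out: cbln11 was highest there, at 16.6 CPM against 7.44 to 10.3, and cbln12 lowest, at 3.43 CPM against 8.1 to 10.5.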

How the results depend on the processing

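Over the settings other than leaving out a library, 532 of 602 values of single genes stayed the same, and with 1 library left out 1139 of 1213 did. The same means the same direction and side of the threshold. For values of cbln13 that use the brains, which have no test, it means a log2 change within 1 SE of the main fit. With 1 library left out 3 of those moved by 1 SE or more. In brains M against WT, the count of called members other than cbln13 was 1 in DESeq2, against 0 in edgeR, and it was 0 to 1 with a library left out, and in S it was 1 throughout. Between M and S brains it was 1 in DESeq2, 1 with only the 2 groups compared, 1 with the replicate block and 0 to 1 with a library left out, against 0. In M bodies it was 1 with the neuron score and 0 to 2 with a library left out, against 0. In S bodies, against 3, it was 0 with the ovary score, 2 with only the 2 groups compared (cbln18 lost), 2 with the neuron score (cbln1, cbln2b and cbln18 lost, cbln11 and cbln2a called instead), 1 without the 5 bodies low in gh1 and 1 to 3 with a library left out. For the difference between tissues it was, in M, 1 without those 5 bodies and 0 to 1 with a library left out, against 0. In S it was 2 in DESeq2, 2 with the replicate block, 1 without those 5 bodies and 0 to 2 with a library left out, against 0. The counts between M and S bodies and between WT tissues did not move in any setting run.

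Changes of sign came in bodies, in values that had not been called. With the neuron score cbln12 was at -1.34 in M and -0.80 in S, cbln2a at -0.94 and -1.49, cbln18 at -0.37 in M, cbln4 at -0.017 in S and cbln13 at 0.17 in S. With the ovary score cbln18 was at -1.37 in M, cbln2a at -0.98 in M and -1.03 in S, cbln4 at -0.062 in S and cbln13 at 0.24 in S. Without the 5 bodies cbln18 was at -0.26 in M, cbln2a at -0.36 in S and cbln13 at 0.057 in S. With 1 library left out cbln18 ran from -0.21 to 0.52 in M, and cbln4 from -0.028 to 0.55 in S. The cause was not tested. The described WT brain against body value of cbln13 ran from -1.26 to -0.45.

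The replicate numbers did not meet the rule for pairing, which asks for every pair over 0.1: deviations of like-numbered libraries correlated at -0.2515 to 0.1246 in brains and -0.2744 to 0.4782 in bodies, with 2 of 10 brain and 10 of 18 body pairs over 0.1, and in 0 of 10 brain and 2 of 18 body pairs did both libraries match their own number best. The highest, 0.4782, was that of WT and M body 5, which with WT and M body 2 (0.3304) are among the bodies low in gh1 and cbln12. With the number as a block every member called without it stayed called, those of cbln2a between M and S brains (0.55, adjusted p = 0.0456) and of cbln1 (-1.20, adjusted p = 0.049) and cbln2b (-1.74, adjusted p = 0.034) for the tissue difference in S were added, cbln20 in M bodies was added (0.94, adjusted p = 0.0432), and cbln5 in M bodies (adjusted p = 0.0644), cbln8 in S bodies (adjusted p = 0.0633) and nrxn1a in S brains (adjusted p = 0.0529), all in edgeR's quasi-likelihood test, were lost.

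Over all genes, the 6698 called in M bodies and 7444 in S bodies became 43 and 230 with the ovary score, 6208 and 4492 with the neuron score and 2423 and 3091 without the 5 bodies. The 1895 called in M brains became 1186 with only the 2 groups compared. The 2767 and 2058 called for the tissue difference in M and S became 1219 and 803 without the 5 bodies. With 1 library left out the calls ran from 1060 to 2590 in M brains, 895 to 2270 in S brains, 1068 to 2482 between M and S brains, and 1043 to 3439 for the tissue difference in S. Depth limits the scarce members: cbln4 had 29 to 85 counts a brain, and cbln11 and cbln18 too few there to test.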
